A study of Mus musculus with 52 samples.

Results

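The genes of MHC class I antigen presentation and of the proteasome were followed in mouse conventional type 1 dendritic cells (cDC1). The members were 70 of the 23135 genes in the count table. Of these, 18 were named class I genes: the heavy chains H2-K1, H2-D1, H2-Q4, H2-Q6, H2-Q7, H2-T22, H2-T23 and H2-M3, the light chain B2m, the loading machinery Tap1, Tap2, Tapbp, Tapbpl, Calr, Canx and Pdia3, the trimming enzyme Erap1 and the transactivator Nlrc5. The other 52 were all genes whose symbol starts with Psma to Psmg and a digit. They comprised the 5 inducible genes Psmb8, Psmb9, Psmb10, Psme1 and Psme2, 42 constitutive proteasome genes, and 5 further matches that are pseudogenes, a retrocopy or a different gene (Psmb5-ps, Psmb6-ps, Psmb6-ps2, Psme2b and Psmc3ip).

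The series had 52 bulk libraries in 13 groups of 4, labelled biological replicates A to D. Per the labels, cells from the bone marrow of C57BL/6 mice were cultured with FLT3L and GM-CSF and sorted as CD103+ cDC1, and all groups share this origin. The 4 h set had untreated cells and cells given PGE2 at 100 ng/ml. It also had cells given medium conditioned by BRAFV600E melanoma cells (control CM) or by BRAFV600E melanoma cells without Ptgs1 and Ptgs2 (Ptgs-deficient CM). Other cells were given PGE2 30 min after 5 uM of a prostaglandin receptor antagonist. The antagonists were SC-19220 for EP1, PF-04418948 for EP2, L-826,266 for EP3 and L161,982 for EP4. The combined group is titled as EP2 plus EP4 antagonists, but its treatment label names SC-19220 with L161,982, so it is called the combined antagonists here. The 24 h set had untreated cells, PGE2 at 100 ng/ml, poly I:C at 10 ug/ml for 4 h, and both agents. The treatment labels do not say if the 4 h of poly I:C fell within the 24 h or followed it. Cultures with poly I:C may therefore have run 4 h longer than those without it, and such a difference cannot be told apart from poly I:C. The deletion of Ptgs1 and Ptgs2 is in the melanoma cells and cannot be checked in these libraries. The labels do not say if replicates A to D are different mice or cultures. The p-values below rest on the variation between replicates, estimated jointly over all groups of a fit, and that variation may be technical.

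MHC class I molecules carry peptides from the inside of a cell to its surface, where CD8 T cells read them. The peptides are cut by the proteasome, moved into the endoplasmic reticulum by the TAP transporter, trimmed and loaded onto a heavy chain that is paired with beta-2 microglobulin. Interferon exchanges the catalytic subunits Psmb5, Psmb6 and Psmb7 of the standard proteasome for Psmb8, Psmb9 and Psmb10, which gives the immunoproteasome, and adds the PA28 cap made of Psme1 and Psme2. cDC1 are known for presenting antigen taken up from other cells on class I, and poly I:C is a double-stranded RNA mimic that their receptor TLR3 senses.

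Many of the class I and inducible genes lie together in the genome, whereas the constitutive ones are scattered. In the GENCODE M21 annotation of GRCm38, 13 of the 23 class I, immunoproteasome and PA28 genes lie on chromosome 17 between 33915899 and 37274484. Of the 42 constitutive genes, 1 lies on that chromosome, 0 lie inside the interval, and all 42 together occupy 16 chromosomes. Tap1 (chr17:34187553-34197225, plus strand) and Psmb9 (chr17:34181987-34187764, minus strand) are read in opposite directions. Their GENCODE spans overlap, and the RefSeq start sites used for the promoters (34187556 and 34187330) have 225 bases between them. Psmb5 (chr14:54614119-54618022, minus strand) and Psmb6 stand apart from that region.

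Promoter stretches of some inducible and constitutive genes are shown as examples, and the choice of genes sets which motifs appear. Each runs from 180 bases before to 20 bases after the start site, 5′ to 3′ on the gene's own strand, from RefSeq on GRCm38.p6. Capitals mark a match, on either strand, to the core of the interferon-stimulated response element (ISRE; GAAA, any 2 bases, GAAA), to the interferon-gamma-activated site (GAS, TTCNNNGAA) or to the core of the antioxidant response element (ARE, TGACNNNGC), and no 2 capital runs overlap. H2-D1 and Tap1 hold none of the 3 in the stretch shown.
H2-D1, chr17:35262914-35263113, plus strand: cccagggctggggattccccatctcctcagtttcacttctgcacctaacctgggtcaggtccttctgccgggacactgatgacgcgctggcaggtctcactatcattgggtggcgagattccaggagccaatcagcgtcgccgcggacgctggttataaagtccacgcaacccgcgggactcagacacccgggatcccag
B2m, chr2:122147507-122147706, plus strand: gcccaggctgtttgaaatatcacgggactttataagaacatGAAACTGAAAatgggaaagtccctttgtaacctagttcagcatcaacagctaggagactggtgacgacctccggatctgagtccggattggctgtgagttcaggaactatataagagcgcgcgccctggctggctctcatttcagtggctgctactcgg
H2-T23, chr17:36032682-36032881, minus strand: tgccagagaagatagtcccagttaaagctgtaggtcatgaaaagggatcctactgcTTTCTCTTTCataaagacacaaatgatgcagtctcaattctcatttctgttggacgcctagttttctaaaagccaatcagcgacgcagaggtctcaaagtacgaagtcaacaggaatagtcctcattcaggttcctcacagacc
Tap1, chr17:34187376-34187575, plus strand: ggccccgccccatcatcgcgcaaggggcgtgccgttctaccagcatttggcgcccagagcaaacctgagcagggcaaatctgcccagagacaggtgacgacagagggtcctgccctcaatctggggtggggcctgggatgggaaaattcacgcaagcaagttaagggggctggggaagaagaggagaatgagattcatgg
Psmb8, chr17:34198015-34198214, plus strand: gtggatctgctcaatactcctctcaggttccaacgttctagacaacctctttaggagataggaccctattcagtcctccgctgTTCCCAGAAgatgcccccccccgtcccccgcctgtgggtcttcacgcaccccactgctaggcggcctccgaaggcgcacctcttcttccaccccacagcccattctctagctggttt
Psmb5, chr14:54617976-54618175, minus strand: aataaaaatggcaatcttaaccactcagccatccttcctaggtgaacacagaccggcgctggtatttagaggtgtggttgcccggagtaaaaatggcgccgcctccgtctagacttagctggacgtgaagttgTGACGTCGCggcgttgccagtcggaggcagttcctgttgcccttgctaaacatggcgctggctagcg
Psmb6, chr11:70525177-70525376, plus strand: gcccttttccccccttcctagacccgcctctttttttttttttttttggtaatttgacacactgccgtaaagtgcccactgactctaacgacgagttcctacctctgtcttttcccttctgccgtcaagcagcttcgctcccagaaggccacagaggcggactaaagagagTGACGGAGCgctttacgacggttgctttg

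B2m has its ISRE core at bases -139 to -130 and H2-T23 at -124 to -115, counted from the start site. Psmb8 has a GAS at -97 to -89. Psmb5 and Psmb6, the constitutive subunits, have an ARE core at -47 to -39 and at -9 to -1. Among the 27018 genes with a RefSeq promoter of 300 bases, 3.99% held the ISRE core, 9.55% the GAS and 14% the ARE core. Of the 20 class I, immunoproteasome and PA28 genes with a promoter, 5 held the ISRE core (B2m, H2-T22, H2-T23, Erap1 and Psme1), 2 the GAS and 4 the ARE core. Of the 34 constitutive genes the numbers were 4, 2 and 6, with the ISRE core in Psmb3, Psmd4, Psmd9 and Psmg4. The ARE core, shown here in Psmb5 and Psmb6, was also in H2-K1, H2-T22, Calr and Pdia3. The share with the ARE core was 20% in the first set and 17.6% in the constitutive set. For the ISRE core it was 25% and 11.8%. The cAMP response element TGACGTCA was in 2.03% of all genes' promoters and in 0 of the 20 and 0 of the 34. A match is a description of the letters and not of a bound site. Of the 5 genes in the first set with the ISRE core, Erap1 was not called with poly I:C. The others were called higher, with H2-T22 passing the filter on low counts only with poly I:C. A link between motif and change was not tested.

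The libraries held 42666 to 438491 counts (median 295484.5). Those of untreated cells at 4 h, replicate A (54107), and of the EP4 antagonist, replicate A (42666), were the only ones under 100000. The members took 1.37% to 2.75% of a library's counts. A count is 1 transcript molecule read at its 3′ end, so gene length does not enter. Levels are CPM, counts brought to a common library size with TMM factors computed over all 52 libraries, and a count of 0 allows up to 10.2 CPM at the median depth (counting error only). After the filter on low counts 60 members were tested at 4 h and 60 at 24 h. H2-Q4, H2-Q6, H2-Q7, Psma8, Psmb5-ps, Psmb6-ps, Psmb6-ps2 and Psmc3ip were tested at neither time, H2-T22 and Nlrc5 only at 24 h, and Psmd9 and Psme4 only at 4 h. The last 50-base words of the transcripts overlap between some members, so that reads could be split: 66.8% of those of Psme2 are found in Psme2b, 58.9% of those of H2-T22 in H2-T10, 23.9% of those of H2-Q6 in H2-Q7, and 7.71% of those of H2-K1 in H2-D1. All 12 cDC1 markers examined, among them Xcr1 and Clec9a, had counts in every group. The lymphocyte and melanoma marker sums stayed at or below 25.9 and 8.14 CPM. Those of conventional type 2 dendritic cells (cDC2) and of macrophages and monocytes reached 233 and 2133 CPM, both with PGE2 at 24 h.

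Poly I:C was accompanied by a rise across the class I and immunoproteasome set. Of its 20 tested genes, 16 passed the filter on low counts both in the libraries with and in those without poly I:C, a split added after seeing the data. All 16 rose against untreated cells at 24 h, with a median log2 fold change of 2.09. Of all genes tested 65% were called, 31.3% higher and 33.7% lower, with a median of -0.10. Of the 39 tested constitutive genes 32 passed the filter in both sets of libraries, and of these 11 rose and 0 fell, with a median of 0.19. Over all tested genes, 18 of 20 and 12 of 39 were called higher and 0 and 5 lower. The calls that this adds belong to genes that passed the filter only where they were high: H2-T22, Nlrc5 and Psma3 with poly I:C, and Psmd5, Psmd10, Psmg1, Psmg2 and Psmg3 without it. Such genes had to differ, so they are described by their values and support no count. H2-M3 passed only with poly I:C, and Erap1 and Psme3 only without it. A gene is called when its adjusted p is at most 0.05 (edgeR's quasi-likelihood test, Benjamini-Hochberg adjustment over all genes tested).

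Scaling matters for this comparison. Library totals without TMM scaling moved the median of all genes to -0.87, with 18.5% of all genes called higher and 58.5% lower. The counts that follow include genes that passed the filter only where they were high, so they show only how scaling moves the calls. Under totals 15 of the 20 class I and immunoproteasome genes were higher and 2 lower (median 1.31). Of the 39 constitutive genes 4 were higher and 22 lower (median -0.66). With DESeq2's size factors the median of all genes was -0.21, with 18 higher and 0 lower in the first set, and 10 higher and 8 lower in the second. A direction given below for a constitutive gene, an endoplasmic reticulum chaperone or a gene outside the members is therefore relative to TMM scaling, and members that turn under library totals are named beside it.

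The classical heavy chains H2-D1 and H2-K1 rose in every library. H2-D1 stood at 622, 620.5, 669.6 and 664 CPM in untreated libraries A to D and at 6230.4, 6804, 6463 and 6911 CPM with poly I:C. All treated libraries were far above all untreated ones, and the log2 fold change was 3.36 (SE 0.09, adjusted p 2.23e-86), a 10.3-fold rise. H2-K1 (chr17:33996017-34000347, minus strand) had 325, 318, 361 and 237 CPM without and 2151, 2249, 2228 and 2284 CPM with poly I:C. The groups again did not overlap, and H2-K1 rose by 2.84 (SE 0.11, adjusted p 1.85e-63). Among non-classical heavy chains, H2-T23, which encodes the Qa-1 molecule, had 52.3, 55.3, 86.6 and 40.1 CPM without and 276, 253, 283 and 307 CPM with poly I:C. H2-T23 rose by 2.24 on the log2 scale (adjusted p 1.13e-19). H2-T22 had 22, 23.3, 2.89 and 16.7 CPM without and 108, 68.5, 171 and 120.2 CPM with poly I:C, on 22 and 98 counts. H2-M3, which presents formylated peptides, was not called, with a log2 fold change of 0.59 (95% interval -0.23 to 1.41) on 36 and 33 counts per group.

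The light chain rose with them. B2m (chr2:122147686-122153083, plus strand), the chain shared by all class I molecules, had 729, 641, 635 and 574 CPM without and 4015, 3613, 3939 and 3927 CPM with poly I:C. Its lowest treated library was several times its highest untreated one, and the log2 fold change was 2.59 (SE 0.09, adjusted p 9.07e-66). Nlrc5, the transactivator of class I genes, had 5.50, 11.7, 20.2 and 6.68 CPM without and 70.2, 94.8, 121 and 102 CPM with poly I:C. Its counts were few (15 and 81 per group), and all poly I:C libraries lay above all untreated ones.

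Peptide transport and loading genes followed, with the chaperones of the endoplasmic reticulum at the low end. Tap1, one chain of the peptide transporter, went from 149, 169, 165 and 227 CPM to 1010.5, 874, 1002 and 1176 CPM, a log2 fold change of 2.53 (adjusted p 3.83e-44). Tap2, the other chain, had 121, 192, 150.1 and 200.3 CPM without and 573, 674, 543 and 855 CPM with poly I:C (2.01, adjusted p 2.34e-28). Tapbp encodes tapasin, which bridges TAP and the heavy chain, and had 385, 422, 335 and 424 CPM against 1962, 1659, 1698 and 1946 CPM (2.22, adjusted p 1.76e-48). In each of these 3 genes the lowest treated library was above the highest untreated one. Its relative Tapbpl, a peptide editor, rose by 2.17 (adjusted p 2.52e-15). Pdia3 (0.81), Calr (0.67) and Canx (0.46), general folding factors of the endoplasmic reticulum that also serve class I, rose under TMM scaling. Under library totals Pdia3 was at 0.03 and not called. Calr turned to -0.11, not called, and Canx to -0.32, called lower (adjusted p 0.0244). Erap1, the trimming aminopeptidase, had 11.0, 40.8, 20.2 and 53.4 CPM without and 32.4, 5.27, 31.4 and 31.2 CPM with poly I:C. Those libraries overlapped, and the log2 fold change of -0.26 (95% interval -1.19 to 0.66) was not called.

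**Figure D1:**
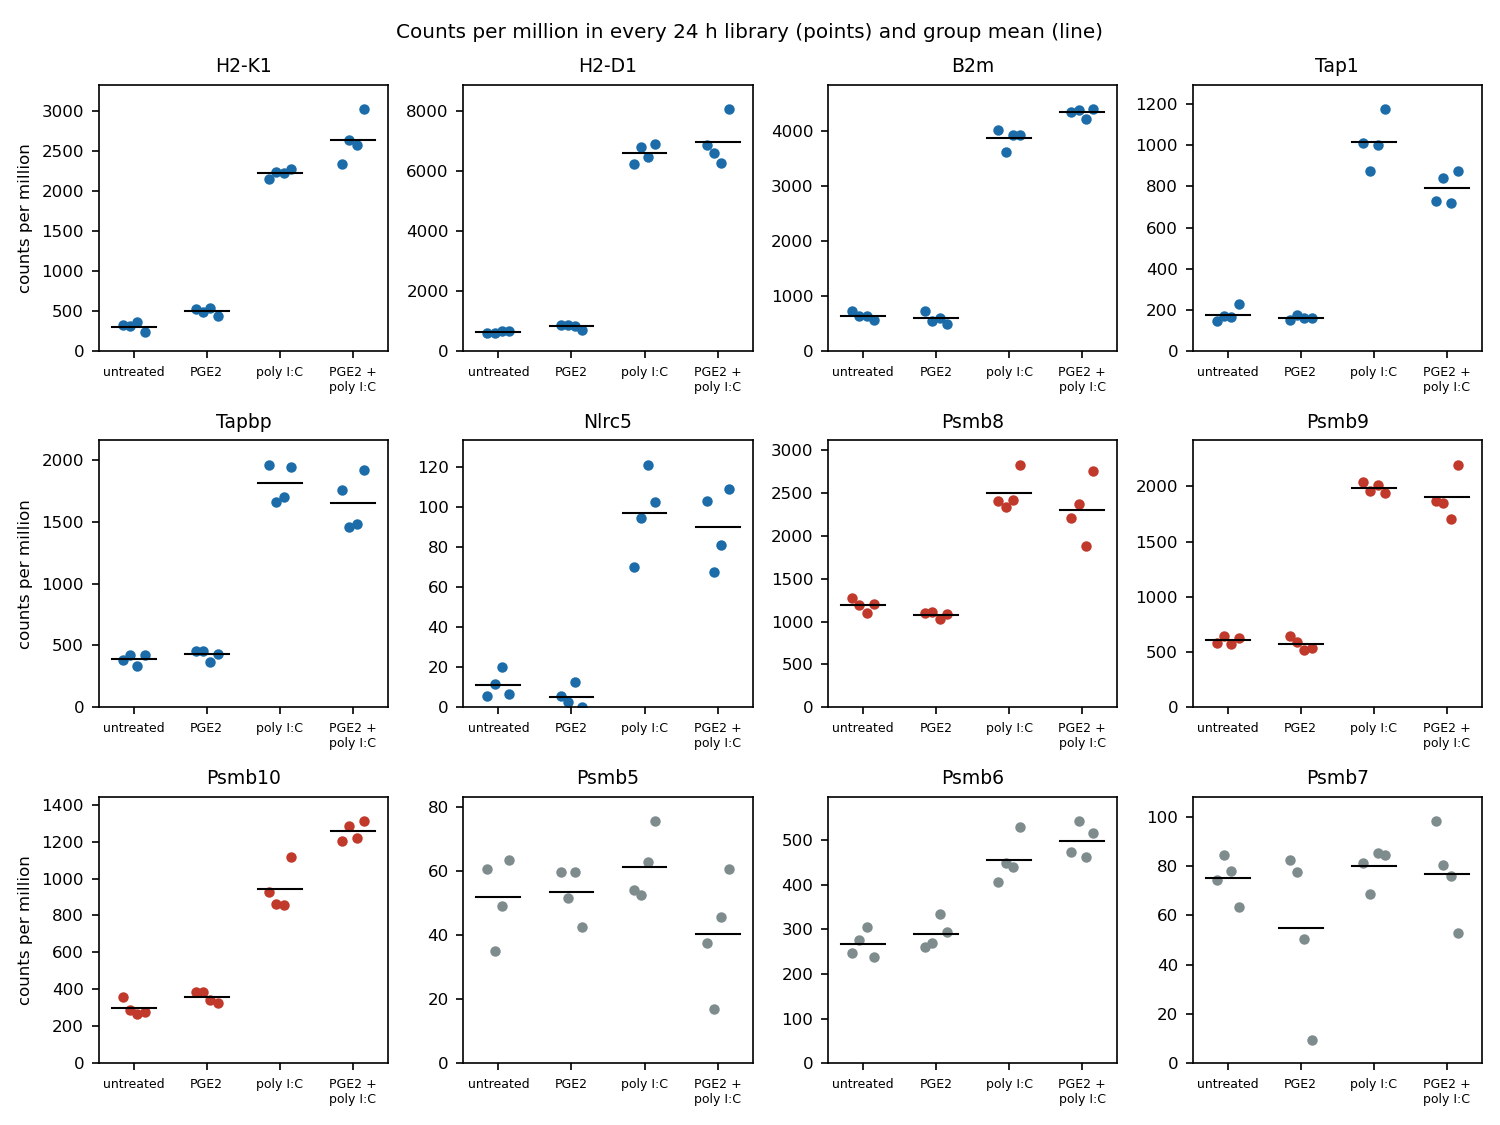
CPM (y axis, from 0, a separate scale per panel) of 12 genes in each of the 16 libraries at 24 h, with the 4 groups along the x axis, points for libraries and lines for group means. H2-D1, H2-K1, B2m, Tap1, Tapbp, Nlrc5, Psmb8, Psmb9 and Psmb10 are higher in every library with poly I:C than in every library without it, while Psmb5 and Psmb7 overlap between these groups.

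All 3 immunoproteasome subunits and both PA28 subunits rose. Psmb9 (beta1i), which lies beside Tap1, had 580.4, 649.6, 574 and 631 CPM without and 2037, 1954, 2016 and 1937 CPM with poly I:C, a log2 fold change of 1.71 (adjusted p 2.68e-39). Psmb10 (beta2i; chr8:105935735-105938444, minus strand) had 358, 288, 268 and 277 CPM without and 929, 864, 858 and 1118 CPM with poly I:C (1.66, adjusted p 3.09e-29). Psmb8 (beta5i; chr17:34197721-34201454, plus strand) had 1271, 1191, 1094 and 1199 CPM without and 2410.0, 2333, 2421 and 2828 CPM with it (1.07, adjusted p 1.17e-23). No library of one group reached the range of the other in any of the 3. Psme2, the beta chain of PA28, stood at 198, 157, 176 and 180.3 CPM and then at 881, 885, 853 and 1176 CPM (2.42, adjusted p 6.60e-42). Psme1, the alpha chain, stood at 762, 749, 672 and 584 CPM and then at 1729, 1596, 1864 and 1933 CPM (1.36, adjusted p 3.35e-28). These groups did not overlap either. Psme2b, a retrocopy (chr11:48945354-48946190, minus strand) whose 3′ end shares words with Psme2, rose by 2.30, and counts of the pair may be split between them.

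The constitutive catalytic subunits behaved unevenly. Psmb5 (beta5) had 60.5, 35.0, 49.1 and 63.4 CPM without and 54.0, 52.7, 62.9 and 75.7 CPM with poly I:C. Its libraries overlapped, and the log2 fold change of 0.25 (95% interval -0.37 to 0.88) was not called. Psmb7 (beta2) had 74.3, 84.5, 77.9 and 63.4 CPM without and 81.1, 68.5, 85.3 and 84.6 CPM with poly I:C (0.09, 95% interval -0.47 to 0.65, not called; -0.68 and called lower under library totals, adjusted p 0.0237). Psmb6 (beta1) had 248, 277, 306 and 237 CPM without and 405, 448, 440.1 and 529.9 CPM with it. Psmb6 rose by 0.78 under TMM scaling (adjusted p 4.52e-07), without overlap, and stood at -0.0012 under library totals.

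The other constitutive genes are given by subcomplex, against 31.3% of all genes called higher and 33.7% lower, and differences between subcomplexes were not tested. In the rest of the 20S core 11 genes were tested, Psma3 among them, and 0 fell. Besides Psma3, 6 of them rose. Psma4, an alpha-ring subunit, had 256, 242, 268 and 297 CPM without and 681, 658, 777 and 690.2 CPM with poly I:C. It rose by 1.41 (adjusted p 8.47e-20), with no overlap, and Psma5 rose by 1.24. Psma3 had 28 counts in untreated cells and 56 with poly I:C. The other 4 were Psma7 (0.62), Psmb4 (0.50), Psma6 (0.46) and Psmb2 (0.39), all of which turned negative under library totals. Of these Psmb2 was then called lower (-0.38, adjusted p 0.00142). Psma6 also missed the threshold with DESeq2 size factors (adjusted p 0.0684), with the DESeq2 test (0.111), with only these groups fitted (0.0513) and without poly I:C replicate C (0.217) or untreated D (0.0533). Psmb2 missed it with the DESeq2 test (0.0556).

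In the 19S cap, which recognises and unfolds substrates, 0 of 6 ATPase genes were called by edgeR and 0 had an unadjusted p under 0.05. The one with the smallest p, Psmc2, had 90.8, 105, 98.1 and 114 CPM without and 86.5, 73.7, 40.4 and 89.1 CPM with poly I:C. All its treated libraries lay below all untreated ones, but the log2 fold change of -0.49 had an adjusted p of 0.101. Of 13 non-ATPase genes 3 rose. Psmd8 went from 501, 463, 528 and 444 CPM to 794, 895, 880.3 and 939.6 CPM (0.86, adjusted p 1.27e-11), without overlap, and Psmd7 rose by 0.97. Under library totals neither was called (0.08, adjusted p 0.506, and 0.20, 0.283). Psmd2 rose by 0.61 under TMM scaling with overlapping libraries and stood at -0.17 under library totals. Its call was also lost with DESeq2 size factors (0.0794), the DESeq2 test (0.125), no filter (0.0776), only these groups fitted (0.0621), and without untreated B or D or poly I:C D (0.0741 to 0.0831). Psmd5 and Psmd10, which are chaperones of cap assembly, had 47 and 52 counts in untreated cells and 8 and 13 with poly I:C.

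Psmf1 encodes PI31, known as an inhibitor of the 20S core in the test tube. It was the constitutive gene with the highest log2 fold change, from 63.3, 61.2, 77.9 and 96.8 CPM to 319, 232, 309.9 and 343 CPM (2.02, adjusted p 5.14e-18), with no overlap. Of the 4 assembly chaperones, Psmg1 had 2.75, 35.0, 31.7 and 16.7 CPM without and 10.8, 5.27, 4.49 and 0 CPM with poly I:C, with overlapping libraries, on 29 and 4 counts. Psmg2 had 57 and 15 counts and Psmg3 58 and 17 counts, each with all poly I:C libraries below all untreated ones.

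**Figure D2:**
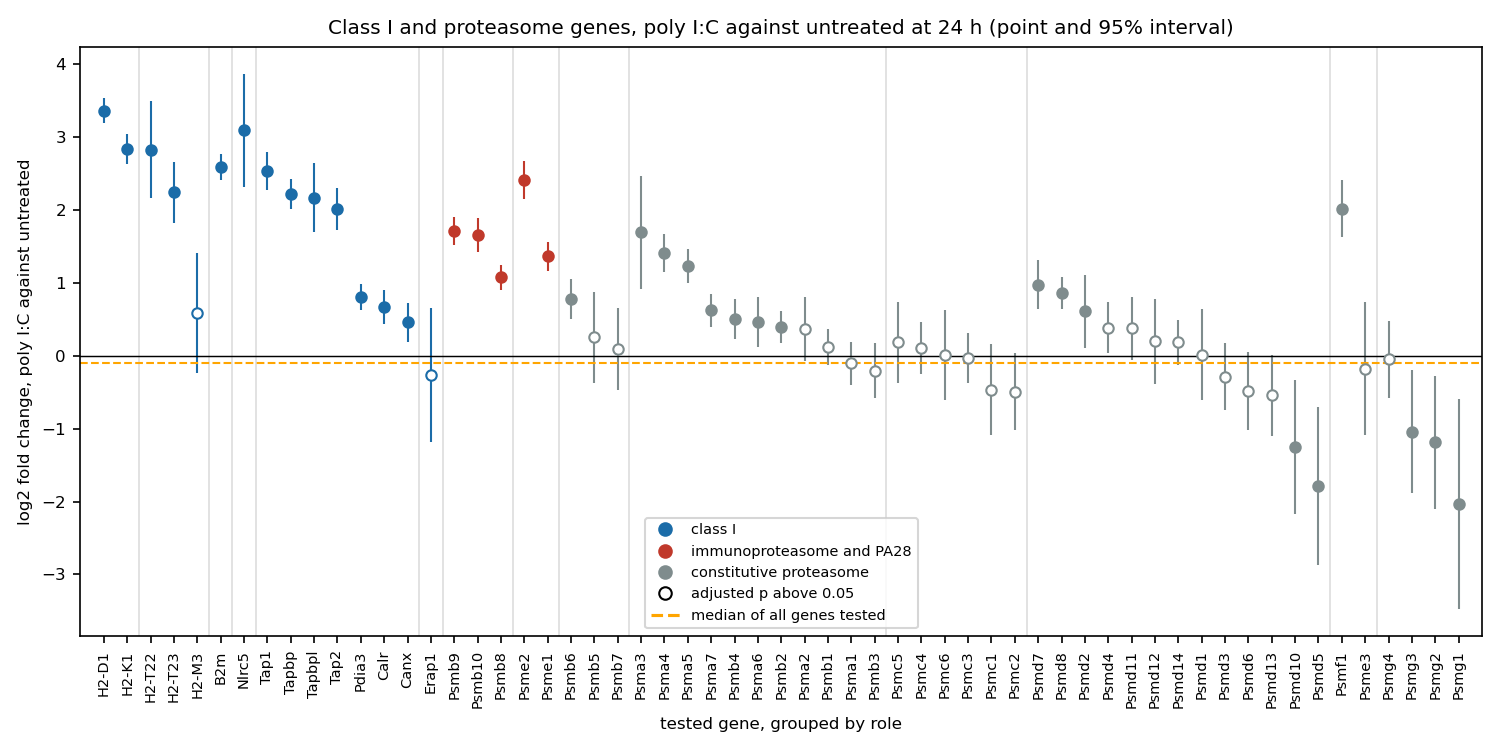
Log2 fold change of poly I:C against untreated at 24 h (y axis) for the tested class I, inducible and constitutive proteasome genes (x axis, grouped by role), with 95% intervals as lines and open points for genes with an adjusted p above 0.05. Class I, immunoproteasome and PA28 genes lie above the dashed median of all genes (-0.10) except Erap1, while constitutive genes spread on both sides of it. Filled points of H2-T22, Nlrc5, Psma3, Psmd5, Psmd10, Psmg1, Psmg2 and Psmg3 are of genes that passed the filter only where they were high.

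Markers moved with poly I:C as well. The summed level of the 12 cDC1 markers was 6962 to 7412 CPM in untreated cells and 3642 to 4693 CPM with poly I:C. Of 11 tested markers 9 were called lower, where 33.7% of all genes were, under TMM scaling. That count was not split by the filter and includes markers low with poly I:C, such as Clec9a (53.8 CPM untreated, 13.2 with poly I:C). The macrophage and monocyte sum went from 1223 to 1657 CPM down to 503 to 651 CPM, with Mertk and Cd14 at 0 in both groups. The plasmacytoid list rose from 124 to 214 CPM to 2268 to 2886 CPM, and it holds Bst2 and Irf7, which interferon induces in many cells. The part of these markers in the class I result was not tested. In bulk samples fewer cells of a type and less RNA per cell cannot be told apart.

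Genes that regulate or feed the pathway were read from lists of their own. With poly I:C 31.3% of all genes were called higher and 33.7% lower. The list counts below were not split by the filter on low counts, so they are descriptions and support no comparison with those shares. They include genes that were low in only one of the groups. Examples are Ube2l6 in untreated cells, and Thop1, Nfyc and Ddi2 with poly I:C. Of 11 tested regulators of class I genes 5 rose with poly I:C and 2 fell. Irf1, a transcription factor of the interferon response, rose by 3.01 (92.3 to 743 CPM). Of 10 cytosolic and endosomal peptidases 5 rose and 4 fell, with the aminopeptidases Lap3 (2.54) and Lnpep (1.92) among the risers. Of 12 proteasome partners 6 rose and 3 fell, and Ube2l6, an ISG15-conjugating enzyme, rose by 5.64. Of 11 folding genes of the endoplasmic reticulum 2 rose and 2 fell, led by Hspa5 (1.54) and Sdf2l1 (-0.90). Of 9 cross-presentation genes 2 rose and 2 fell, namely Cyba (1.05) and Sec22b (0.59) against Clec9a (-1.97) and Wdfy4 (-1.61), the last needed for cross-presentation by cDC1. The single tested class I-like gene outside the members, Fcgrt, which encodes the neonatal Fc receptor, fell by 2.71.

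The balance of catalytic subunits shifted towards the inducible ones with poly I:C. The share of Psmb8, Psmb9 and Psmb10 among the counts of the 6 catalytic genes is a ratio within a library that no scaling touches, and it is given without a test. Untreated libraries at 24 h had a share of 84.1% ± 1.67 (SD, n = 4; 81.7% to 85.3%). PGE2 libraries at 24 h had 83.5% ± 1.74 (81.0% to 84.9%). With poly I:C it was 90.1% ± 0.567 (89.5% to 90.9%) and with both agents 89.8% ± 0.738 (89.2% to 90.9%). The 8 libraries with poly I:C all lay above the 8 without it, and PGE2 left the ranges overlapping on either background. By pair, the Psmb9 share of Psmb9 plus Psmb6 was 69.5% ± 3.11 in untreated cells and 81.3% ± 2.06 with poly I:C, that of Psmb10 plus Psmb7 was 79.8% ± 2.76 and 92.1% ± 0.891, and that of Psmb8 plus Psmb5 was 95.8% ± 0.936 and 97.6% ± 0.215 (SD, n = 4).

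At 4 h the share was 81.8% ± 3.03 in untreated cells, 76.8% ± 1.67 with PGE2, 75.3% ± 1.14 with control CM and 79.6% ± 1.76 with Ptgs-deficient CM. The shallow untreated replicate A, with 54107 counts, had the highest share of its group (86.2%), and without it the untreated mean was 80.3%. PGE2 libraries (75.2% to 78.9%) lay below untreated ones (79.2% to 86.2%), and control CM libraries (74.0% to 76.8%) lay below those of Ptgs-deficient CM (78.4% to 82.2%). The groups given PGE2 after an antagonist had mean shares of 75.7% (EP1), 76.3% (EP2), 75.6% (EP3), 77.2% (EP4) and 75.5% (combined), and the libraries of each overlapped those of PGE2 alone.

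**Figure D3:**
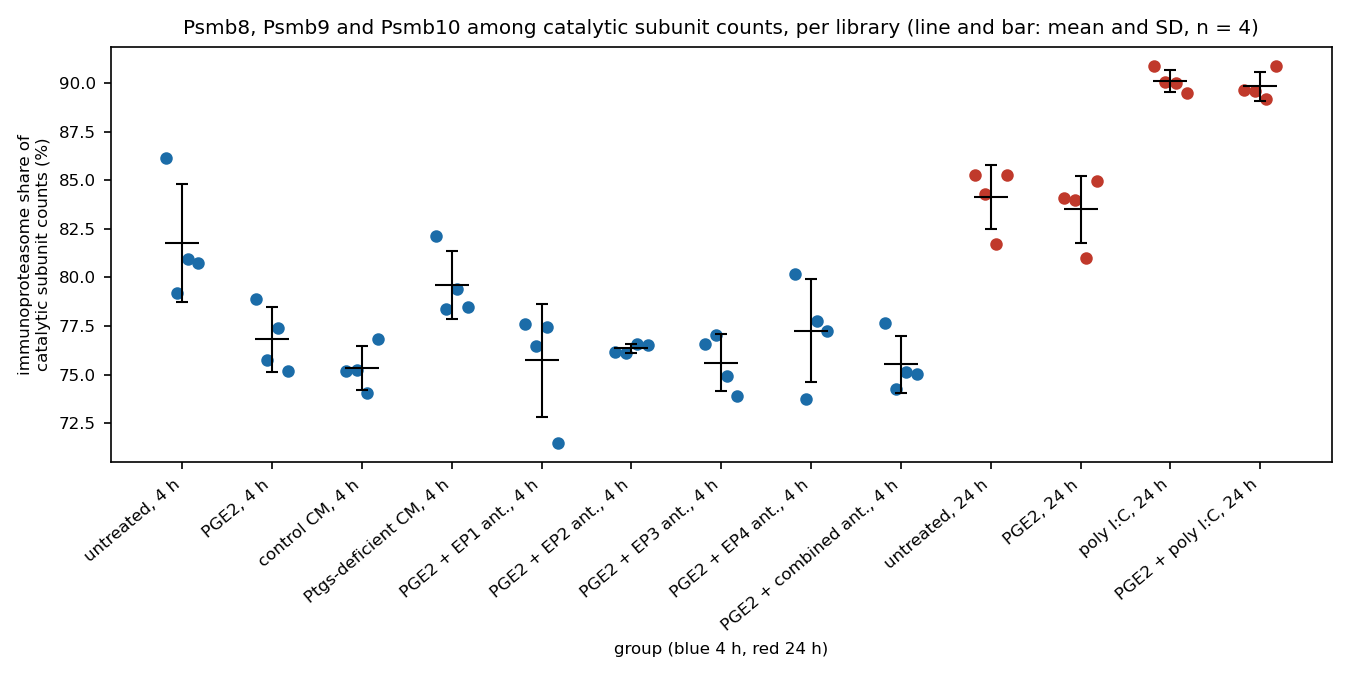
Share of Psmb8, Psmb9 and Psmb10 among the counts of the 6 catalytic subunit genes, in percent (y axis, from about 71 and not from 0), in each of the 52 libraries by group (x axis; blue 4 h, red 24 h), with mean and SD over 4 libraries. The poly I:C groups sit near 90%, above the other groups, and the PGE2 and control CM groups at 4 h sit below untreated cells and Ptgs-deficient CM.

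PGE2 alone for 24 h changed 5 of 60 tested members, where 7.97% of all genes were called (4.74% higher, 3.22% lower). The classical heavy chains rose and a chaperone and 2 ATPases of the cap fell, while the light chain, TAP, the immunoproteasome and PA28 were not called. H2-K1 had 325, 318, 361 and 237 CPM in untreated libraries and 533, 494, 539 and 444 CPM with PGE2. The groups did not overlap, and H2-K1 rose by 0.74 on the log2 scale (SE 0.11, adjusted p 1.12e-07). H2-D1 had 622, 620.5, 669.6 and 664 CPM against 886, 885, 835 and 709 CPM and rose by 0.41 (SE 0.09, adjusted p 0.000486), again without overlap. Both calls held under every alternative run.

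B2m, which every heavy chain needs, had 738, 549, 605 and 501 CPM with PGE2 against 729, 641, 635 and 574 CPM without, a log2 difference of -0.06 (95% interval -0.25 to 0.14). Pdia3, the thiol oxidoreductase of the loading complex also called ERp57, had 1318, 1354, 1296 and 1386 CPM in untreated cells and 963, 1049, 1030.2 and 998 CPM with PGE2. It fell by 0.36 (SE 0.09, adjusted p 0.00285), with no overlap, and was called under every alternative run. Tap1 was at -0.07 (95% interval -0.38 to 0.25) and Nlrc5 at -0.87 (95% interval -2.15 to 0.40) on 15 and 7 counts.

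In the cap, Psmc2 had 42.7, 57.5, 31.5 and 85.1 CPM with PGE2 against 90.8, 105, 98.1 and 114 CPM. It fell by 0.92 (SE 0.27, adjusted p 0.0134) without overlap, and lost its call without PGE2 replicate A (adjusted p 0.0692) or C (0.107). Psmc3 had 148, 152, 192 and 137 CPM against 259, 265, 245 and 174 CPM, with 1 library of each group inside the range of the other. It fell by 0.54 (adjusted p 0.0331), was lost with DESeq2 (0.0541) and without a filter (0.0717), and was lost on leaving out any of 6 libraries (untreated A, B or C, or PGE2 A, B or D; adjusted p 0.0734 to 0.112).

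None of the inducible genes was called by edgeR in this comparison, and 2 of the 5 had an unadjusted p under 0.05. Psmb10 had 385, 388, 343 and 326 CPM with PGE2 against 358, 288, 268 and 277 CPM (0.32, adjusted p 0.111; called at 0.0499 without untreated replicate A). Psme2 had 202, 198, 255 and 236 CPM against 198, 157, 176 and 180.3 CPM (0.35, adjusted p 0.155), with all PGE2 libraries above the highest untreated one. Psmb8 stood at -0.10 and Psmb9 at -0.04. In other constitutive subcomplexes, which had no called gene, the smallest adjusted p included those of Psma4 (-0.30, adjusted p 0.246), Psmd4 (0.35, 0.247), Psmg4 (0.40, 0.379) and Psmb7 (-0.31, 0.616). The PGE2 libraries of Psmb7 spread widely, at 82.6, 77.6, 50.4 and 9.46 CPM.

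Of other genes of the pathway, PGE2 at 24 h changed 2 of 11 regulators, 1 of 10 peptidases, 3 of 11 folding genes, 1 of 12 proteasome partners and 2 of 9 cross-presentation genes, where 7.97% of all genes were called. Irf8, the factor that specifies cDC1, fell by 0.59 and Irf1 rose by 0.69. Ctss, the protease cathepsin S, rose by 1.14 and Nfe2l2, the stress factor NRF2, by 0.85. Sdf2l1 fell by 0.44, Hsp90b1 by 0.42 and Wdfy4 by 0.56, while Ncf4 rose by 0.57. The cDC1 marker sum was 4354 to 4565 CPM with PGE2 against 6962 to 7412 CPM. Of 11 tested markers 6 were called lower, where 3.22% of all genes were. The macrophage and monocyte sum was 1802 to 2133 CPM against 1223 to 1657 CPM. The cDC2 sum was 193 to 233 CPM with PGE2 against 73.5 to 118 CPM in untreated cells. For granulocytes and mast cells it was 34.5 to 63.0 CPM against 3.34 to 27.5 CPM, and plasmacytoid sums overlapped. The part of these markers in the heavy chain result was not tested.

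Poly I:C on top of PGE2 again called 36 of 60 members, in libraries that this comparison does not share with that of poly I:C alone. Against PGE2 alone, all 16 class I and immunoproteasome genes that passed the filter both with and without poly I:C rose (median 1.93, all genes -0.11), where 64.8% of all genes were called, 30.8% higher and 34% lower. Of the 32 such constitutive genes 13 rose and 0 fell (median 0.30). Over all tested genes 18 of 20 and 13 of 39 were called higher and 0 and 4 lower. These counts, the 36 of 60 and those under library totals include genes that passed the filter only where they were high. Under library totals the median of all genes was -0.88, and the counts were 16 higher and 2 lower in the first set and 4 higher and 23 lower in the second. H2-D1 rose by 3.0, B2m by 2.79, H2-K1 by 2.33, Tap1 by 2.22, Tap2 by 1.98 and Tapbp by 1.89. Nlrc5 had 7 and 81 counts. Psme2 rose by 2.17, Psmb10 by 1.73, Psmb9 by 1.66, Psme1 by 1.27 and Psmb8 by 1.04. Psmb6 rose by 0.73 under TMM scaling (-0.0431 under library totals), while Psmb5 (-0.49) and Psmb7 (0.32) were not called. Under library totals Psmb5 was called lower (-1.25, adjusted p 0.000584). H2-M3 and Erap1 were again the 2 of the 20 that were not called.

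Among the other members, H2-T22 had 25 and 161 counts, and H2-T23 rose by 2.41, Tapbpl by 2.37, Psme2b by 2.32, Psmf1 by 1.71, Psma5 by 1.51, Psma6 by 1.37, Psma4 by 1.34, Pdia3 by 1.09 and Psmd8 by 0.97. Under library totals Psmd8 was not called (0.19, adjusted p 0.124). Calr, Canx, Psma2, Psma7, Psmb2, Psmb4, Psmc2, Psmd7 and Psmd14, called higher under TMM scaling, turned negative. Of these Calr (-0.30, adjusted p 0.0247), Psma7 (-0.33, 0.00735) and Psmb2 (-0.50, 4.72e-05) were then called lower. Psmb2 was also lost with DESeq2 size factors (0.162), the DESeq2 test (0.247), only these groups fitted (0.127) and without PGE2 replicate C (0.272). Psma2 and Psmc2 were lost with the DESeq2 test (0.0774 and 0.0848) and without PGE2 replicate A (0.0575 and 0.0685). Psmc2 was also lost without PGE2 C (0.108) or both agents B (0.0774). Psmg1 and Psmg2 had 3 counts each against 42 and 45. The ratios of the rates were 0.0982 (95% interval 0.0195 to 0.307) and 0.0916 (0.0182 to 0.285), for counting error only.

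**Figure D4:**
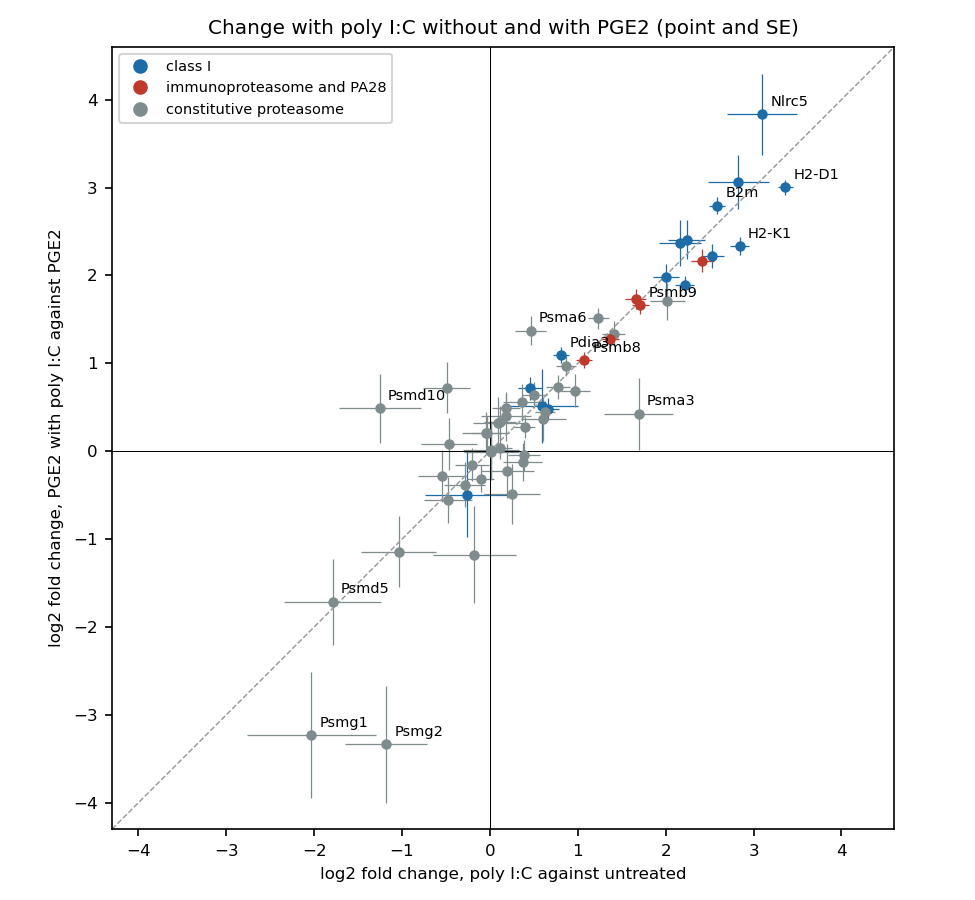
Log2 fold change with poly I:C in cells without PGE2 (x axis) and with PGE2 (y axis), 1 point per tested gene with its SE in both directions and a dashed line of equal change. The 16 class I and immunoproteasome genes that passed the filter both with and without poly I:C lie in the upper right in both. H2-T22 and Nlrc5 passed it only with poly I:C, so their place supports no count. H2-K1 lies below the line (2.84 and 2.33) and Psma6 above it (0.46 and 1.37).

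PGE2 on top of poly I:C changed 8 of 60 tested members, where 10.7% of all genes were called (5.03% higher, 5.65% lower). Psmb10 had 1204, 1285, 1217 and 1312 CPM with both agents against 929, 864, 858 and 1118 CPM with poly I:C alone. It rose by 0.40 (SE 0.11, adjusted p 0.00516) without overlap and was at 0.0527 without poly I:C replicate C. Psma6, an alpha-ring subunit, had 436, 403, 461 and 462 CPM against 222, 195, 350.3 and 227 CPM. It rose by 0.79 (SE 0.16, adjusted p 8.84e-05), with no overlap, and was called under every alternative run. Psmd10 had 37.5, 42.4, 35.5 and 60.8 CPM against 21.6, 5.27, 18 and 17.8 CPM (1.45, adjusted p 0.0341). That call rested on 40 and 13 counts and was lost with DESeq2 (0.0612) and without the filter (0.110). It was also lost without any of several single libraries, for example poly I:C replicate B (0.128).

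The 5 that fell included a TAP chain and a chaperone. Tap1 had 731, 839.9, 719.9 and 875 CPM with both agents against 1010.5, 874, 1002 and 1176 CPM, with the ranges touching. It fell by 0.38 (SE 0.12, adjusted p 0.0166) and was lost without poly I:C replicate D (0.0825) or without the filter (0.149). Calr, calreticulin, had 506, 632, 568 and 729 CPM against 799.7, 685, 781 and 873 CPM. Its ranges overlapped, and it fell by 0.38 (adjusted p 0.0235). The call was lost without replicate A of both agents (0.0990), without poly I:C replicate D (0.0713) and without the filter (0.166). Psmd7 had 258, 191, 223 and 215 CPM against 335, 305, 355 and 338 CPM and fell by 0.61 (adjusted p 0.00868), without overlap, and was at 0.0508 without the filter. Psma4 had 543, 543, 608 and 506 CPM against 681, 658, 777 and 690.2 CPM. It fell by 0.37 (adjusted p 0.0405), without overlap. The call was lost without the filter (0.239) and on leaving out any of 5 libraries (adjusted p 0.0528 to 0.159). Psmg2 was called lower (adjusted p 0.0464) on 3 against 15 counts, a rate ratio of 0.184 (95% interval 0.0342 to 0.651), and was lost with DESeq2 (0.105), with a replicate block (0.0515), without the filter (0.150) and on leaving out poly I:C A or C or both agents B, C or D (0.0897 to 0.159).

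The heavy and light chains were not called in this comparison. H2-K1 had 2337, 2647, 2575 and 3034 CPM with both agents, all above the poly I:C libraries, and a log2 difference of 0.23 (adjusted p 0.0880; called at 0.0233 when only these groups were fitted). H2-D1 had 6867, 6601, 6281 and 8078 CPM (0.05, 95% interval -0.09 to 0.20) and B2m 4356, 4382, 4223 and 4408 CPM (0.15, adjusted p 0.296). Psmb8 was at -0.14, Psmb9 at -0.08, Psme1 at -0.18 and Psme2 at 0.11. Outside the members Lap3 fell by 1.04, the disulfide isomerase P4hb by 0.92 and Cyba by 0.58. Lgmn, an asparaginyl endopeptidase, rose by 1.23, Ncf4 by 1.17, Nfe2l2 by 0.71 and Irf8 by 0.34.

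The low-count H2-Q genes, which the filter removed, had more counts with both agents than in the other 24 h groups. For untreated, PGE2, poly I:C and both agents the counts over 4 libraries were 1, 9, 12 and 41 for H2-Q4, 2, 8, 13 and 40 for H2-Q6, and 0, 3, 16 and 46 for H2-Q7. In a fit without the filter (17409 genes) poly I:C against untreated had adjusted p of 0.00170, 0.00379 and 9.96e-06 for them. Both agents against poly I:C had adjusted p of 0.109, 0.180 and 0.178 and was not called. H2-Q6 and H2-Q7 share 3′ sequence, so these counts are not separate measurements.

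The interaction test asked whether the PGE2 difference depended on poly I:C. It called 2 of 60 members, where 3.28% of all genes were called (0.853% higher, 2.43% lower). For H2-K1 the PGE2 difference was 0.74 without and 0.23 with poly I:C, an interaction of -0.51 (SE 0.15, adjusted p 0.0273). It was lost without the filter (0.379) and on leaving out any of 8 libraries (PGE2 A or C, both agents A or B, poly I:C B, C or D, or untreated D; adjusted p 0.0522 to 0.119). For Psma6 the PGE2 difference was called with poly I:C (0.79) and not without it, where PGE2 libraries had 165, 132, 186 and 175 CPM and untreated ones 212, 186, 182 and 144 CPM. The interaction was 0.91 (SE 0.24, adjusted p 0.0124; 0.0504 without untreated replicate A and 0.0585 without PGE2 replicate B). H2-D1 was at -0.36 (adjusted p 0.0704, and 0.0431 with the replicate letter as a block).

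At 4 h PGE2 alone changed 2 of 60 tested members, where 8.57% of all genes were called (5.21% higher, 3.35% lower), and neither was a heavy chain. Psma1, an alpha-ring subunit, had 133, 352, 218 and 279.6 CPM in untreated cells and 345, 459, 361 and 425 CPM with PGE2. Its libraries overlapped through 1 untreated value (replicate B), and it rose by 0.61 (SE 0.15, adjusted p 0.00220; 0.0545 without untreated replicate C). Psme1 had 624, 607, 699 and 578 CPM in untreated cells and 509.9, 492, 471 and 430.5 CPM with PGE2, all below the untreated range. It fell by 0.38 (SE 0.13, adjusted p 0.0466). That call was lost without the filter (0.340), without the 2 shallow libraries (0.0833) and on leaving out untreated A, B or C or PGE2 B, C or D.

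The class I and immunoproteasome genes had a median of -0.23 with PGE2 at 4 h (all genes -0.01), and the constitutive genes one of 0.01. H2-K1 had 450.2, 481, 525 and 361 CPM with PGE2 against 279, 362, 448 and 451 CPM, a log2 difference of 0.21 (95% interval -0.07 to 0.48) that was not called. H2-D1 was at 0.04, B2m at 0.02, Tap1 at -0.41 (adjusted p 0.233), Psmb9 at -0.27 (0.298), Psmb8 at -0.24 (0.236) and Psmb10 at -0.26 (0.390). Psmb9 libraries with PGE2 (312 to 376 CPM) all lay below untreated ones (403 to 457 CPM). In other genes of the pathway, Irf8 and Wdfy4 fell by 0.78 each and Sdf2l1 by 0.60, while Ncf4, a subunit of the phagocyte oxidase, rose by 0.67, Ctss by 0.48 and the ubiquitin gene Ubb by 0.41. The cDC1 marker sum was 3917 to 4548 CPM against 6129 to 7872 CPM in untreated cells.

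Conditioned medium gave few calls among the members. Control CM against Ptgs-deficient CM called 0 of 60 members with edgeR and 0 with DESeq2 (5 with an unadjusted p under 0.05), where 3.95% of all genes were called (2.43% higher, 1.51% lower). Psme1 was at -0.17 (493 against 567 CPM) and Psmb9 at -0.25 (367 against 449 CPM). In both genes all control CM libraries lay below all Ptgs-deficient CM libraries, and neither was called. The other inducible genes were Psmb8 at -0.24, Psmb10 at -0.26 and Psme2 at -0.23, and among constitutive catalytic genes Psmb5 was at 0.67 (adjusted p 0.279), Psmb6 at 0.00 and Psmb7 at 0.15. Outside the members Nfe2l2 rose by 1.38, and Hspa5 (0.44), Irf8 (0.46) and Sdf2l1 (0.55) fell by the log2 values given.

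Against untreated cells control CM called 2 of 60 members, where 7.56% of all genes were called (4.81% higher, 2.75% lower). Psma1 had 357, 332, 425 and 328 CPM with control CM and rose by 0.46 (adjusted p 0.0389), with overlap through 1 untreated library. Psma5 had 257, 274, 298 and 342 CPM with control CM against 146, 469, 379 and 554 CPM. It fell by 0.51 (adjusted p 0.0145), although the shallow untreated replicate A lay below every CM library. Both calls ended without the filter (0.227 and 0.0839). Psma1 was also lost under library totals (0.132) and without the shallow untreated replicate A (0.115). Leaving out untreated C or D or control CM A or C lost it too. Psma5 was lost on leaving out untreated B or D or control CM A or B. Psmb10 was at -0.43 (adjusted p 0.0822) and was called with a replicate block (0.0380), with only these groups fitted (0.0425) and under library totals (0.0177). Tap1 was at -0.54 (0.0840) and was called under library totals (0.0261) and without untreated replicate C (0.0436). Under library totals Psmb8 (-0.39, adjusted p 0.0121) and Psme1 (-0.43, 0.0109) were also called lower. Ptgs-deficient CM against untreated cells called 0 members with edgeR and 0 with DESeq2, 1 having an unadjusted p under 0.05, where 0.0869% of all genes were called (0.0695% higher, 0.0174% lower). These 2 comparisons and that of PGE2 share the untreated libraries.

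The antagonists were each compared with PGE2 alone, whose libraries all 5 comparisons share. EP1, EP2, EP3 and EP4 antagonists called 0 of 60 members each with edgeR and with DESeq2, and 4, 5, 4 and 3 had an unadjusted p under 0.05. With the EP1 antagonist 0% of all genes were called. With EP2 0.417% were called (0.0869% higher, 0.33% lower), with EP3 0.0695% (0.0174% higher, 0.0521% lower) and with EP4 0.0348% (0.0174% higher, 0.0174% lower). Psme1 was called lower with PGE2 at 4 h, a call that several alternative runs lost. With the 4 antagonists Psme1 was at 0.05, 0.19, 0.19 and 0.05, with 95% intervals that together span -0.22 to 0.44. H2-K1 was at -0.09, -0.11, 0.00 and 0.00, Psmb9 at 0.08, -0.01, 0.09 and -0.25, and Psmb5 at 0.55, 0.52, 0.77 and 0.68.

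With the combined antagonists 3 members were called, all constitutive, where 9.52% of all genes were called (4.21% higher, 5.32% lower). Psmb2, a beta-ring subunit, had 681, 749.7, 814 and 719 CPM against 542, 530.0, 549 and 533 CPM with PGE2 alone and rose by 0.40 (adjusted p 0.0263), with no overlap. Psmd14, the deubiquitinase of the cap, had 360.2, 418, 315 and 247 CPM against 248, 248, 212 and 215 CPM (0.48, adjusted p 0.0351). Psmd3, a cap subunit, had 139.5, 176, 159 and 107 CPM against 96.5, 56.4, 74.5 and 108 CPM (0.77, adjusted p 0.0180). Psmd14 and Psmd3 overlapped with the PGE2 group in the lowest library of the combined group. Psmb2 lost its call on leaving out any of 7 libraries (all but replicate A of the combined group; adjusted p 0.0524 to 0.112). Psmd14 lost it without combined A or B or PGE2 B, C or D, and Psmd3 without replicate B or C of either group. Without the filter Psmb2 (adjusted p 0.0772) and Psmd14 (0.0872) were not called, and Psmd14 missed the threshold with the DESeq2 test (0.0564). Psme1 was at 0.32 (adjusted p 0.0896), with all its libraries above those of PGE2 alone, and the class I and immunoproteasome median was 0.10 against 0.16 for the constitutive genes and 0.01 for all genes. Outside the members Sdf2l1 rose by 0.64, Irf8 by 0.53 and Hspa5 by 0.40, while Nfe2l2 fell by 1.21, Ncf4 by 0.69, Fcgrt by 0.51 and Ctss by 0.50.

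**Figure D5:**
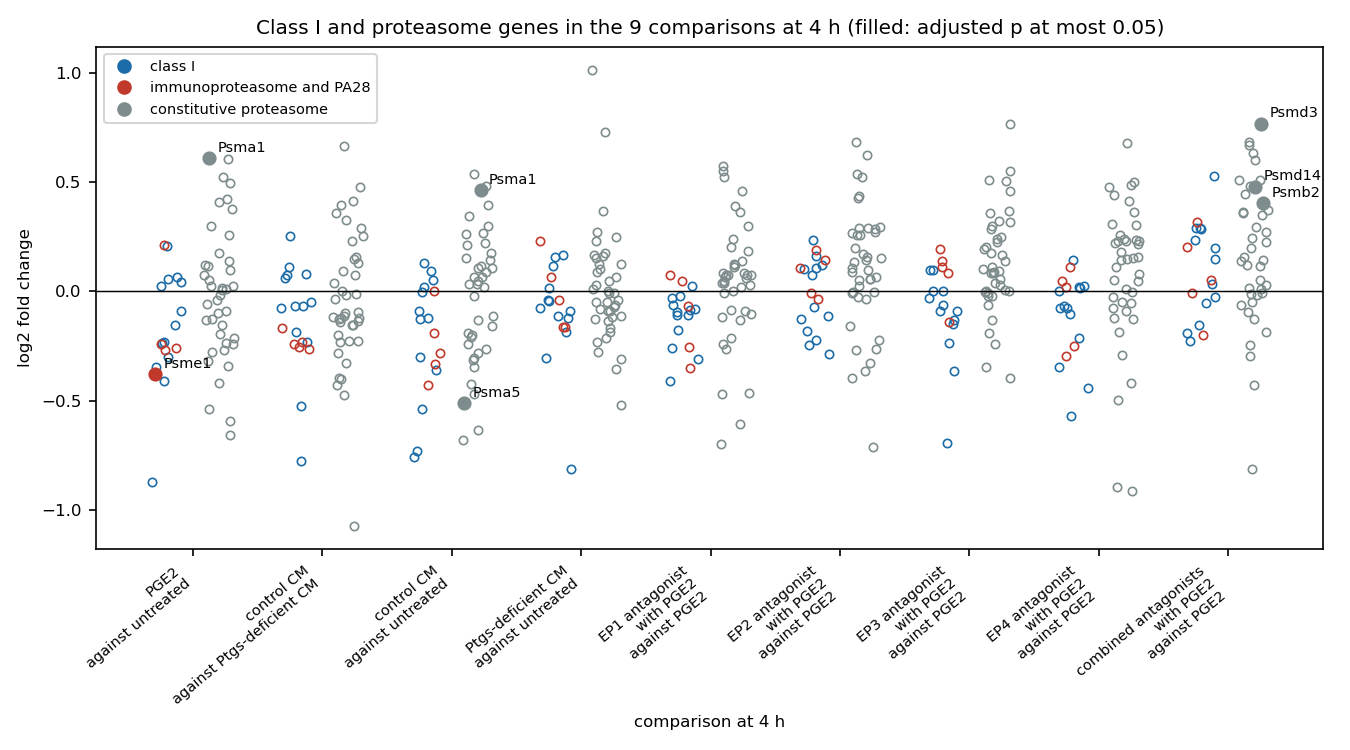
Log2 fold change (y axis) of each tested class I (blue), immunoproteasome and PA28 (red) and constitutive proteasome gene (grey) in the 9 comparisons at 4 h (x axis), with filled points for an adjusted p of at most 0.05. Labels name the filled points, Psma1 and Psme1 with PGE2, Psma1 and Psma5 with control CM, and Psmb2, Psmd14 and Psmd3 with the combined antagonists.

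Between the times, 2 of 58 tested members differed in untreated cells, where 4.33% of all genes were called (2.3% higher, 2.04% lower). Psmb9 had 411, 403, 457 and 421 CPM at 4 h and 580.4, 649.6, 574 and 631 CPM at 24 h, higher by 0.49 (adjusted p 0.00477). Pdia3 had 1632, 1706, 1914 and 1789 CPM at 4 h and 1318, 1354, 1296 and 1386 CPM at 24 h, a fall of 0.45 on the log2 scale (adjusted p 0.000615). Neither gene's libraries overlapped between the times. H2-K1 was at -0.41 (adjusted p 0.0609) and was called lower without the shallow 4 h replicate A (-0.44, adjusted p 0.0297), without untreated 24 h replicate C (0.0430), with the DESeq2 test (0.0461), with a replicate block (0.0492) and under library totals (0.0385). Time and whatever else differed between the 4 h and 24 h sets cannot be told apart. The PGE2 difference itself changed with time for 1 member, where 4.35% of all genes were called (2.11% higher, 2.24% lower). Psmc2 had 106, 128, 83.5 and 129 CPM with PGE2 at 4 h against 53.1, 82.7, 98.5 and 78.7 CPM in untreated cells, while at 24 h PGE2 libraries were below untreated ones. The difference between the 2 PGE2 effects was -1.36 (SE 0.36, adjusted p 0.0104). H2-K1 was at 0.52 in this test (adjusted p 0.0940) and Psmb10 at 0.57 (0.0849), both uncalled.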

How the data were processed

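Bulk RNA of 52 libraries was read at the 3′ end with molecular identifiers, per the labels' protocols. The deposited table holds counts of distinct molecules per gene, made by the authors with the Drop-seq pipeline on GRCm38, per the labels. The submitters' processing notes name DESeq2 1.14.1 and GRCm38.p6. Which aligner was used, and whether counting used strand, is not given in the sources used here. From these counts TMM factors, CPM and log2 fold changes were computed in R 4.3.3 with edgeR 4.0.16, and DESeq2 1.42.0 was an alternative. The 4 h, 24 h and time comparisons were fitted separately, each over all its groups, with edgeR's filter on low counts (5754, 5273 and 5403 genes tested) and p-values were adjusted by Benjamini-Hochberg across every gene in the fit. The scripts were tested on simulated data. Dates stood in place of symbols in 20 lines (0.105% of counts), and 1 line was left out.

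The members and lists were chosen with earlier results of these data known. The rule for named genes was 15 anchors (H2-K1, H2-D1, B2m, Tap1, Tap2, Tapbp, Nlrc5 and the inducible and constitutive catalytic and PA28 genes), every other called member of a comparison or, beyond 10, the 10 with the smallest adjusted p, and the 2 called genes of each pathway list with the smallest adjusted p. Other called genes were named after their values were seen. Some genes of the pathway lists are not reported here by name. Pattern matches that are pseudogenes, a retrocopy or another gene were kept apart from the constitutive genes. With Psme2b counted as constitutive, a choice made after seeing the data, 13 of 40 were called higher and 5 lower with poly I:C, and 14 higher and 4 lower with poly I:C on PGE2. Replicate letters were not treated as pairs: in 14 comparisons no pair of same-lettered libraries deviated together with a correlation over 0.1.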

Additional observations from a re-analysis of the deposited data

Results flagged for a closer look

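In 4 of 208 groups of 4 libraries, 1 library stood far from the others, where chance gives about 1 in 20. Psmb6 was at 133 CPM in the shallow untreated replicate A at 4 h. Psme2 was at 145 CPM in EP1 antagonist replicate B and at 1180 CPM (1176 before rounding to 3 digits) in poly I:C replicate D. Tap2 was at 153 CPM in EP2 antagonist replicate C. Psmb6 at 4 h and Psme2 with poly I:C bear on the 4 h share and on the Psme2 rise given above, which are both printed per library or without that library.

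In 3 members an effect differed between conditions by a test of the difference itself (edgeR's quasi-likelihood test, Benjamini-Hochberg adjustment). The PGE2 effect on H2-K1 was smaller with poly I:C than without it by a log2 value of -0.51 (adjusted p 0.0273). The PGE2 effect on Psma6 was larger with poly I:C by 0.91 (adjusted p 0.0124). The PGE2 effect on Psmc2 was lower at 24 h than at 4 h by -1.36 (adjusted p 0.0104).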

How the results depend on the processing

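Scaling by library totals moved most. Members called went from 2 to 5 for PGE2 at 4 h, 2 to 7 for control CM against untreated, 3 to 10 for the combined antagonists and 1 to 4 for the change of the PGE2 effect with time, and constitutive genes called higher went from 12 to 4 with poly I:C and from 13 to 4 with poly I:C on PGE2. Under totals these turned negative with poly I:C: Calr -0.11, Canx -0.32, Psma6 -0.31, Psma7 -0.16, Psmb2 -0.38, Psmb4 -0.28, Psmb6 -0.0012, Psmb7 -0.68 and Psmd2 -0.17, with Canx, Psmb2 and Psmb7 called lower. With poly I:C on PGE2 these turned negative: Calr -0.30, Canx -0.0625, Psma2 -0.22, Psma7 -0.33, Psmb2 -0.50, Psmb4 -0.13, Psmb6 -0.0431, Psmc2 -0.052, Psmd14 -0.28 and Psmd7 -0.0882, with Calr, Psma7 and Psmb2 called lower. Without the filter the counts called were 1 for PGE2 at 4 h, 0 for control CM against untreated, 1 for the combined antagonists, 2 for PGE2 with poly I:C against poly I:C and 1 for the interaction. Fitting only the groups compared gave 4 for control CM against untreated and 6 for the combined antagonists, and gives no separate value for the interaction and the time comparison of effects. Without the 2 libraries under 100000 counts PGE2 at 4 h called 1 and control CM against untreated 1. With DESeq2's test control CM against untreated and untreated cells between times called 3 each. With a replicate block, although the letters share only a name, the counts were 2 in place of 1 for the PGE2 effect between times, 3 in place of 2 for control CM against untreated, for the interaction and for untreated cells between times, and 7 in place of 8 for PGE2 with poly I:C against poly I:C. Leaving out 1 library at a time gave 0 to 2 (PGE2 at 4 h), 0 to 0 (control against Ptgs-deficient CM), 0 to 2 (control CM against untreated), 0 to 0 (Ptgs-deficient CM), 0 to 0 (EP1, EP2, EP4), 0 to 1 (EP3), 0 to 3 (combined), 3 to 5 (PGE2 at 24 h), 32 to 37 (poly I:C), 5 to 8 (PGE2 on poly I:C), 34 to 38 (poly I:C on PGE2), 1 to 4 (interaction), 2 to 3 and 1 to 2 (times). Constitutive genes called higher were 11 to 13 in both poly I:C comparisons, and class I and immunoproteasome genes 18 to 18. Both counts include genes that passed the filter only where they were high, such as H2-T22, Nlrc5 and Psma3. The inducible share ranged over 80.3 to 82.6 (untreated, 4 h), 76.1 to 77.4 (PGE2), 74.8 to 75.8 (control CM), 78.7 to 80.0 (Ptgs-deficient CM), 75.1 to 77.2 (EP1), 76.3 to 76.4 (EP2), 75.1 to 76.2 (EP3), 76.3 to 78.4 (EP4), 74.8 to 75.9 (combined), 83.8 to 84.9 (untreated, 24 h), 83.0 to 84.3 (PGE2), 89.9 to 90.3 (poly I:C) and 89.5 to 90 (both), in percent. From Psmb8 and Psmb9 against Psmb5 and Psmb6 alone it was 75.3 (EP2), 73.9 (EP3) and 88.6 (PGE2 with poly I:C). The cause of these shifts was not tested. Depth limits Nlrc5, the H2-Q genes, Psmg1, Psmg2, Psmd5 and Psmd10, whose counts per group are given beside their values.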

Other observations

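Genes with group mean log2 CPM most like those of Psmb9 over the 13 groups, among 4895 genes compared, were Ehd4 (Pearson r 0.983), Lgals3bp (0.982), Spop (0.981), Anxa7 (0.980) and Cnp (0.979). For Psmb5 they were Emc3 (0.784), Bad (0.772), Elf2 (0.755), Cetn2 (0.749) and Sf3b6 (0.735). These are descriptions over 13 means that share libraries and scaling, and no p is given.

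In summed level, the class I heavy chains with B2m went from 1702.5 CPM in untreated cells at 24 h to 13190 CPM with poly I:C. The 5 immunoproteasome and PA28 genes went from 2965 to 8155 CPM and the constitutive proteasome genes from 6672 to 9319 CPM (TMM scaling, means of 4 libraries).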
